A study of Homo sapiens with 6 samples.

Results

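The genes described here encode the transforming growth factor beta (TGF-beta), bone morphogenetic protein (BMP) and activin signaling system in a human adrenocortical carcinoma cell line. They were chosen by name, as a fixed set of 49 of the 57341 named genes in the count table, and all 49 were found. RNA was sequenced from 3 replicates of H295R, an established steroid-producing adrenocortical carcinoma line, and from 3 replicates of H295R-PM-Ptc+. The second population came from the first by a sort on surface Ptch1, the Hedgehog receptor, and was expanded in culture. Neither population carried an engineered allele or received a treatment, and both grew in the same medium. Each group is a set of cultures of 1 line, and the labels do not say whether the replicates are separate cultures, so the p-values measure the spread between these libraries, which may be technical.

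The libraries held 23264403 to 25813247 counts on genes, of which 0.283% to 0.331% fell on the 49 genes. PTCH1, on chromosome 9 from 95442980 to 95517057, is the gene by which the cells were sorted. It had 441, 559 and 579 counts in the libraries labelled H295R and 248, 326 and 319 in those labelled H295R-PM-Ptc+, a log2 fold change of -0.81 (standard error, SE, 0.147, edgeR adjusted p = 0.0207, and 0.0618 to 0.0921 when H295R replicate 2 or 3 or H295R-PM-Ptc+ replicate 2 is left out), which goes against the labels. The group names are also exchanged between the deposited counts and the normalized values that accompany the study, for each of the 6 libraries. Every difference below is therefore H295R-PM-Ptc+ over H295R by label, and each direction depends on these labels. Of 10 markers of adrenocortical cells, 9 passed the filter on low counts and all 10 were detected. Their summed level was 1726 to 2074 CPM (counts scaled to a common library size) in the libraries labelled H295R and 2292 to 2543 CPM in those labelled H295R-PM-Ptc+. Of these, SCARB1 (log2 fold change 0.63, edgeR adjusted p = 0.00345) and CYP21A2 (0.88, 0.00670) were higher, and SCARB1 alone went from 816 to 1262 CPM. Log2 fold changes were 0.41 for STAR, 0.11 for FDX1 and 0.01 for HSD3B2, and -0.25 for CYP11A1, -0.12 for CYP17A1, -0.06 for NR5A1 and -0.07 for MC2R. With libraries of the same number paired, STAR was also higher (edgeR adjusted p = 3.91e-06) and CYP11A1 lower (0.00100), and CYP11B1 did not pass the filter. The sum of 7 fibroblast markers was 44.0 to 49.1 CPM against 55.2 to 60.4 CPM, with LUM at 0 in every library, and the sum of 5 endothelial markers was 0.197 to 0.334 CPM against 0.508 to 0.647 CPM. The sum of 5 immune markers was 0.647 to 1.14 CPM against 1.09 to 1.37 CPM, with PTPRC and CD68 at 0 in every library. COL1A1, FAP and CD14, the markers of these other cells that passed the filter, had edgeR adjusted p-values of 0.455, 0.0755 and 0.536, and of 0.169, 4.33e-04 and 0.310 with libraries of the same number paired. FAP, which also marks some tumor cells, lay apart between the groups on the higher side (log2 fold change 0.33) and passed in the paired fit. The members that passed in that fit went both ways, 7 higher and 11 lower. The part of other cells in the differences below was not tested.

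Ligands of this family are secreted dimers that bring type I and type II receptor kinases together. The type II receptor activates the type I receptor, which phosphorylates receptor-regulated SMAD proteins, and these join SMAD4 and move to the nucleus. TGF-beta and activin signal mainly through SMAD2 and SMAD3, BMPs through SMAD1, SMAD5 and SMAD9, and the ID genes and SMAD6 are well known targets of the BMP branch. In the adrenal cortex, activin and inhibin subunits are expressed, and TGF-beta is known to restrain steroid production.

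The matrix gene TGFBI and the receptor gene ACVRL1 stood 19.4-fold and 2.12-fold higher in H295R-PM-Ptc+ as labelled. By edgeR with group alone and the filter on low counts, no gene of the set was lower with an adjusted p under 0.05. At an unadjusted p under 0.05, 6 were lower and 6 higher (17.3% of all tested genes, either direction). DESeq2 called 1 lower, ID2, and so did edgeR with no filter. The SMAD1, SMAD2, SMAD3 and SMAD5 transcripts lay within a log2 fold change of 0.01 to 0.05 of equal levels. With the replicate number as a block, which pairs libraries of the same number, 18 members (41.9%) passed, against 22.5% of all tested genes, among them BMP2 and BMP4 on the higher side and TGFBR1, BMPR2, ACVR2A and ID2 on the lower side.

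Of the 49 genes, 43 passed edgeR's filter on low counts and 6 did not. An adjusted p under 0.05 in edgeR's quasi-likelihood test with Benjamini-Hochberg adjustment over 16710 genes was reached by 2 of the 43, which is 4.65%, where 624 (3.73%) of all tested genes reached it, 2.42% higher and 1.32% lower. In this fit, with group as the only term, the share of members was near that of all genes. At an unadjusted p under 0.05 there were 12 members, against 17.3% of all tested genes. The log2 fold change was positive for 18 members and negative for 25, with a median of -0.05, and the median of all tested genes was 0.00. The same-numbered replicates of the groups deviated together, so the numbers pair the libraries. With this block the count was 18 of 43 members (41.9%), 7 higher and 11 lower, against 22.5% of all tested genes, of which 12.1% were higher and 10.4% lower. The 3 libraries of one group lay wholly above or below the other 3 in 12 members, 5 higher and 7 lower, against 23.5% of all tested genes. An exact permutation test of 3 libraries against 3 cannot go below p = 0.1 (two-sided).

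**Figure D1:**
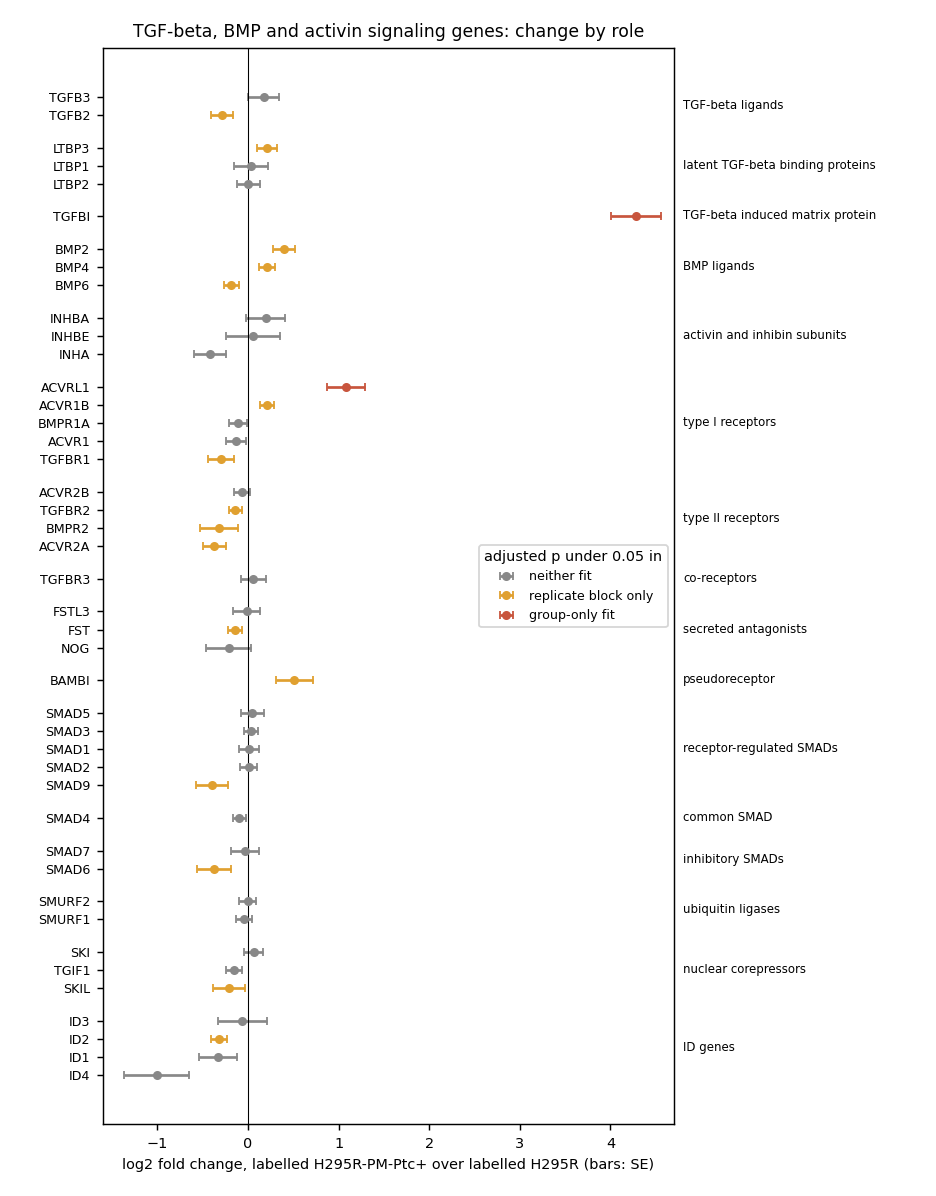
Log2 fold change of each tested gene, grouped by role, H295R-PM-Ptc+ over H295R by label. Points are edgeR estimates, bars are standard errors, and colors give whether the adjusted p was under 0.05 with group alone, only with the replicate block, or in neither fit. TGFBI stands at 4.28 and ACVRL1 at 1.08, and the other 41 lie between -1.01 and 0.51.

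TGFBI encodes a secreted matrix protein that was found as a TGF-beta induced gene and binds collagens and integrins. It lies on chromosome 5 from 136028895 to 136063818 on the forward strand. It had 5, 4 and 6 counts in the libraries labelled H295R and 97, 121 and 79 in those labelled H295R-PM-Ptc+, which are 0.203 ± 0.0429 and 4.02 ± 0.753 CPM (SD, n = 3 each). Every library of the second group held more than 10 times the counts of any library of the first. The log2 fold change was 4.28 (SE 0.277, edgeR adjusted p = 3.25e-04), and leaving out any 1 library gave 4.12 to 4.41 and kept the call. The level stayed low on the scale of RPKM, which is CPM per kilobase of exon, at 0.026 and 0.515 RPKM, and the gene ranked 41st of the 49 by its mean over the 6 libraries. Under a filter of 10 counts in every library, TGFBI would not be tested. TGFBI is also on a list that the study drew up from these same libraries, so it is not an independent choice, and the list's direction, under exchanged group names, is no support for the one given here. Its promoter is shown because TGFBI had the largest difference of the 43 genes. These are the 250 bases before the RefSeq start, on GRCh38.p14 at chr5:136028738-136028987, forward strand, with the GGCGCC motif searched as a BMP-type SMAD site in capitals.
TGFBI: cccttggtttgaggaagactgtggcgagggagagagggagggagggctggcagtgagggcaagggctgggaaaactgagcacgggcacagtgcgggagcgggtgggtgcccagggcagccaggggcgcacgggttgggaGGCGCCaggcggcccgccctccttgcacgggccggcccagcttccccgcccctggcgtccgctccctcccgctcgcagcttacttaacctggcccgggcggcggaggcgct
GGCGCC, which reads the same on both strands, is in 16.4% of the 35116 promoters of this length in the RefSeq table and in 18 of the 80 promoters (22.5%) of the members. A match is a stretch of letters and not a measured binding site.

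ACVRL1 encodes ALK1, a type I receptor for BMP9 and BMP10 that is best known from endothelial cells. It lies on chromosome 12 from 51906908 to 51923361. It had 46, 38 and 36 counts in the libraries labelled H295R and 106, 68 and 80 in those labelled H295R-PM-Ptc+. The groups did not overlap, and each pair of same-numbered libraries was higher in H295R-PM-Ptc+, by 1.10, 0.86 and 1.24 on the log2 scale. In CPM the level was 1.62 ± 0.260 against 3.44 ± 0.705 (SD, n = 3 each). The log2 fold change was 1.08 (SE 0.211, edgeR adjusted p = 0.0269). The call depended on single libraries, since the edgeR adjusted p rose to 0.108 or 0.118 when H295R replicate 2 or 3 was left out, and to 0.0735 or 0.0976 when H295R-PM-Ptc+ replicate 1 or 3 was. The endothelial markers PECAM1, CDH5, VWF, KDR and TEK were near 0, at a sum of 0.647 CPM or less in any library. Their sum was higher through TEK (2, 4 and 2 against 6, 11 and 11 counts) and CDH5 (1, 0 and 1 against 5, 2 and 1 counts). The mean CPM of PECAM1, VWF and KDR was lower in H295R-PM-Ptc+. ENG, the co-receptor that works with ALK1 in endothelium, had at most 13 counts and was not tested. Whether endothelial RNA had a part in ACVRL1 was not tested.

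**Figure D2:**
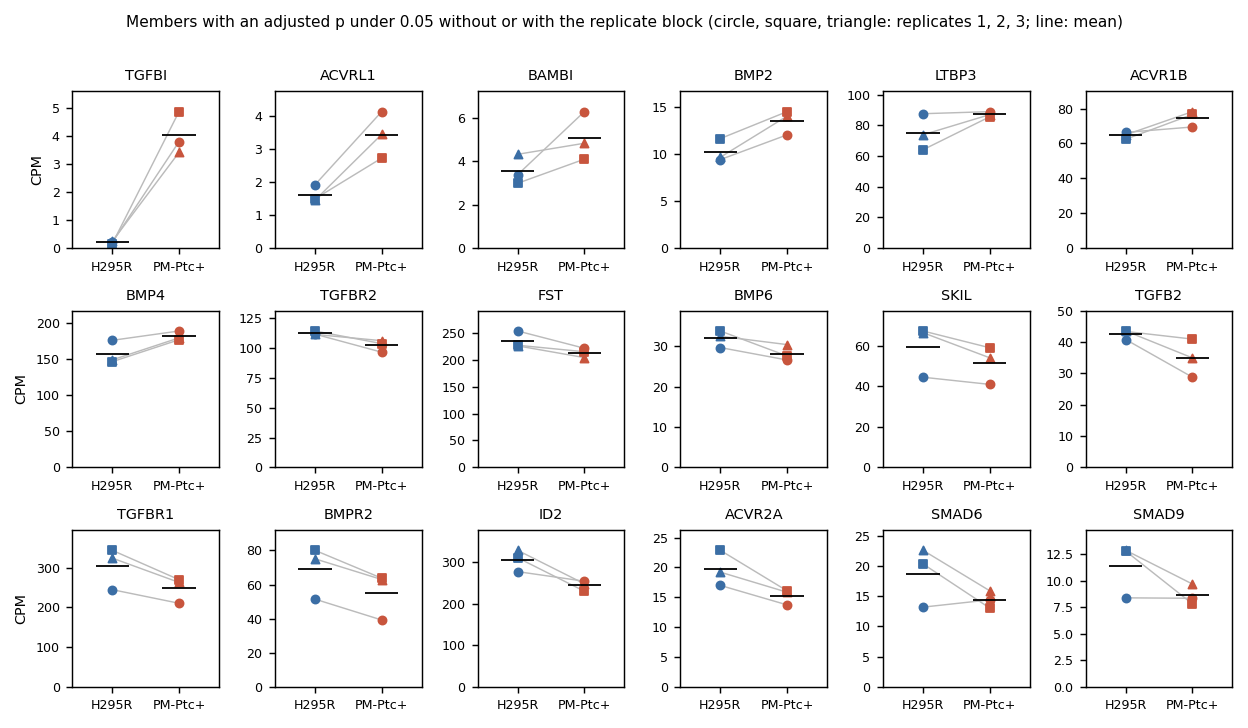
CPM of the 18 genes that passed an adjusted p of 0.05 without or with the replicate block, 1 panel a gene, each axis starting at 0. Circles, squares and triangles are replicates 1, 2 and 3, grey lines join libraries of the same number, and short black lines are group means. TGFBI, ACVRL1, BMP2, BMP4 and ACVR1B lie apart on the higher side and TGFBR2, ACVR2A, FST and ID2 on the lower side.

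Among the BMP ligands, BMP4 had the highest level per length, at 47.5 to 61.3 RPKM over the 6 libraries, against 9.56 to 12.1 RPKM for BMP6 and 2.61 to 4.03 RPKM for BMP2. BMP5 and BMP7 had at most 1 count in any library and were not tested. BMP4, a ligand that acts in the development of many organs, lies on chromosome 14 from 53949736 to 53958761. It had 176, 147 and 149 CPM in the libraries labelled H295R and 189, 177 and 179 CPM in those labelled H295R-PM-Ptc+. The groups lay apart by a narrow margin, at a log2 fold change of 0.21 (SE 0.0895, edgeR adjusted p = 0.271, and 0.00358 with the replicate block). BMP2, a close relative of BMP4 on chromosome 20 from 6767664 to 6780280, had 9.41, 11.6 and 9.66 CPM against 12.0, 14.5 and 14.0 CPM. Its libraries also lay apart on the higher side, at a log2 fold change of 0.40 (SE 0.124, edgeR adjusted p = 0.126, and 0.00357 with the block). BMP6, which acts in iron regulation and is made by several endocrine tissues, had 29.6, 33.7 and 32.5 CPM against 26.6, 27.6 and 30.4 CPM. The groups overlapped, and BMP6 was lower with the block only (log2 fold change -0.18, edgeR adjusted p = 0.333 without and 0.0485 with it). With the block 2 of the 3 tested BMP ligands were thus higher and 1 lower, where 12.1% and 10.4% of all tested genes were.

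TGFB2 and TGFB3 are the TGF-beta ligands of the set, which does not include TGFB1. TGFB2, on chromosome 1 from 218346235 to 218444619, had 40.8, 43.3 and 43.5 CPM in the libraries labelled H295R and 28.8, 40.9 and 34.9 CPM in those labelled H295R-PM-Ptc+. The library labelled H295R-PM-Ptc+ replicate 2 reached the level of H295R replicate 1, so the groups overlapped. The log2 fold change was -0.29 (SE 0.120, edgeR adjusted p = 0.261, and 0.00640 with the block). TGFB3 had a log2 fold change of 0.17 and an edgeR adjusted p of 0.678. The latent TGF-beta binding proteins hold the ligands in the matrix until they are released. LTBP1 had the second highest level of all members, at 67.1 to 105.0 RPKM, and its libraries differed by replicate number and not by group, since replicate 1 of both groups (492 and 529 CPM) lay below replicates 2 and 3 (744 to 769 CPM). Its log2 fold change was 0.04, with a 95% interval of -0.39 to 0.46. LTBP3 had 87.5, 64.1 and 73.8 CPM against 88.9, 85.5 and 87.0 CPM and passed with the block only (log2 fold change 0.21, edgeR adjusted p = 0.371 without and 0.0163 with it). LTBP2 had a log2 fold change of 0.00 (edgeR adjusted p = 0.995).

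Activins are dimers of inhibin beta subunits, and inhibin pairs a beta subunit with the alpha subunit encoded by INHA, a gene of adrenocortical and gonadal cells. INHA had 4.77, 3.38 and 3.39 CPM in the libraries labelled H295R and 2.81, 2.81 and 3.02 CPM in those labelled H295R-PM-Ptc+. The groups did not overlap, and the difference passed in neither fit (log2 fold change -0.41, edgeR adjusted p = 0.272, and 0.0760 with the block). INHBA, which encodes the subunit of activin A, had only 1.52 to 2.29 CPM. INHBE had 1.81 to 3.67 CPM, and INHBB at most 7 counts in any library. The secreted antagonist FST (follistatin), which binds activins, had 253, 227 and 225 CPM against 221, 215 and 204 CPM. All 3 libraries labelled H295R were above the other 3, by a margin that passed with the block only (log2 fold change -0.14, edgeR adjusted p = 0.418 without and 0.0285 with it). FST ranked 3 of the 49 genes in level per length, at a mean of 75.5 RPKM, while INHBA had a mean of 0.242 RPKM. FSTL3, another activin-binding protein, and NOG (noggin), which binds BMPs, stood at log2 fold changes of -0.02 and -0.21 and passed in neither fit. GREM1, a further BMP antagonist, had at most 1 count in any library.

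**Figure D3:**
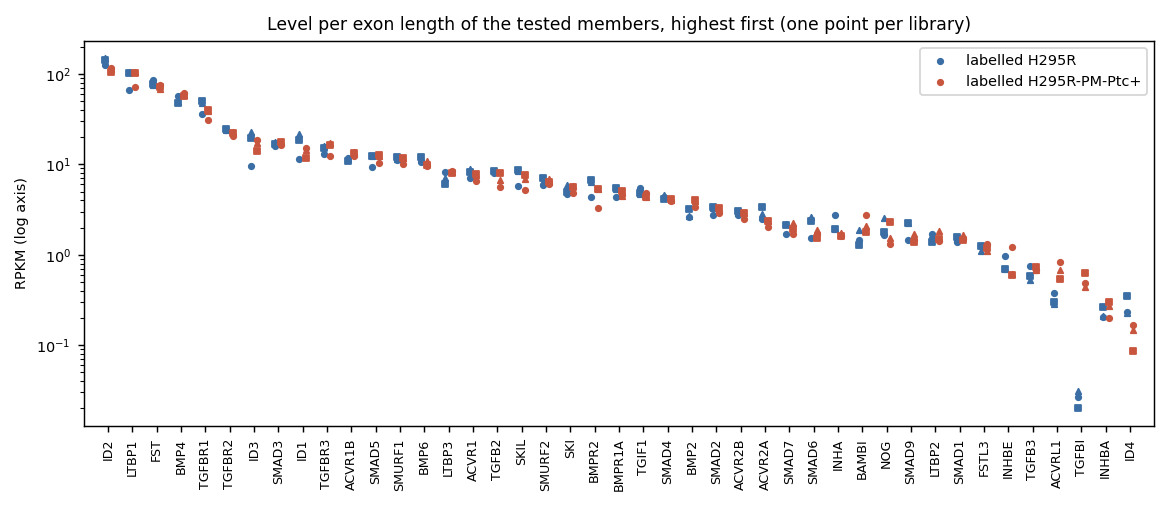
Level per exon length (RPKM, log axis) of the 43 tested genes, ordered by their mean, with 1 point for each library. Circles, squares and triangles are replicates 1, 2 and 3. ID2, LTBP1, FST, BMP4 and TGFBR1 have the highest levels, and TGFBI, near the lowest end, is the gene whose groups lie widest apart.

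The type I receptors moved in different directions. TGFBR1, the type I receptor of TGF-beta, lies on chromosome 9 from 99104038 to 99154192 and had the highest level of the receptors, at 30.8 to 50.2 RPKM. It had 245, 344 and 324 CPM in the libraries labelled H295R and 210, 270 and 263 CPM in those labelled H295R-PM-Ptc+. Both replicates 1 were the lowest of their group, and within each number the library labelled H295R-PM-Ptc+ was lower. The log2 fold change was -0.30 (SE 0.142, edgeR adjusted p = 0.332, and 1.61e-04 with the block). ACVR1B, the type I receptor of activins, had 66.3, 62.4 and 64.9 CPM against 69.4, 76.6 and 78.2 CPM. Its libraries lay apart on the higher side and passed with the block only (log2 fold change 0.21, edgeR adjusted p = 0.189 without and 0.0106 with it). The BMP receptors BMPR1A and ACVR1 had log2 fold changes of -0.11 and -0.13 and passed in neither fit, and BMPR1B had at most 1 count in any library.

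All 4 type II receptors had a negative log2 fold change, as 8328 of the 16710 tested genes did, from -0.37 to -0.06, with edgeR adjusted p-values of 0.161 to 0.788 without the block. With it, 3 of the 4 passed on the lower side, where 10.4% of all tested genes did. BMPR2, the main type II receptor of BMPs, had 51.4, 80.1 and 75.1 CPM in the libraries labelled H295R and 39.2, 63.7 and 63.0 CPM in those labelled H295R-PM-Ptc+, and each pair was lower in the second group, by 0.39, 0.33 and 0.25 (log2). Replicates 1 lay far below the rest of their groups, so that the groups overlapped and the edgeR adjusted p was 0.499 without and 2.77e-04 with the block. ACVR2A, an activin receptor, had 17.0, 22.9 and 19.2 CPM against 13.7, 16.1 and 15.8 CPM. The groups lay apart, at a log2 fold change of -0.37 (SE 0.126, edgeR adjusted p = 0.161, and 0.00245 with the block). TGFBR2, the type II receptor of TGF-beta, had 112, 114 and 111 CPM against 96.4, 104 and 106 CPM, with a log2 fold change of -0.14 (edgeR adjusted p = 0.374, and 0.0412 with the block). ACVR2B stood at -0.06 (edgeR adjusted p = 0.788). The co-receptor TGFBR3, or betaglycan, which presents TGF-beta and inhibin, had 107 to 151 CPM and a log2 fold change of 0.06 (edgeR adjusted p = 0.881). BAMBI, a receptor-like protein without a kinase that blocks signaling, had 3.39, 2.99 and 4.32 CPM against 6.29, 4.10 and 4.83 CPM. H295R-PM-Ptc+ replicate 1 was the highest and the groups overlapped (log2 fold change 0.51, edgeR adjusted p = 0.240, and 0.0249 with the block).

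Of the intracellular SMAD machinery, SMAD1, SMAD2, SMAD3 and SMAD5 showed small differences. The 95% intervals were wider for SMAD9 (-0.796 to -0.00291), SKIL (-0.61 to 0.19), SMAD6 (-0.79 to 0.04) and SMAD7 (-0.38 to 0.31). The log2 fold change was 0.03 for SMAD3 (95% interval -0.14 to 0.20), 0.01 for SMAD2 (-0.21 to 0.22), 0.01 for SMAD1 (-0.23 to 0.26) and 0.05 for SMAD5 (-0.23 to 0.33). SMAD4, the partner that all of these share, had 56.5, 54.1 and 59.4 CPM in the libraries labelled H295R and 51.7, 53.9 and 53.3 CPM in those labelled H295R-PM-Ptc+. The groups lay apart with a log2 fold change of -0.10 (95% interval -0.26 to 0.06, edgeR adjusted p = 0.546), and the block did not bring it past the threshold. SMAD9, the least abundant per length of the BMP-regulated SMADs after SMAD1, had 8.40, 12.8 and 12.9 CPM against 8.36, 7.84 and 9.71 CPM. Its libraries labelled H295R replicates 2 and 3 stood above the other 4 (log2 fold change -0.40, edgeR adjusted p = 0.285, and 0.0238 with the block). The ubiquitin ligases SMURF1 and SMURF2, which mark receptors and SMADs for degradation, had log2 fold changes of -0.05 and 0.00. Of the nuclear corepressors, SKI stood at 0.06 and TGIF1 at -0.15, and neither passed. SKIL, which encodes SnoN, had 44.5, 67.3 and 66.4 CPM against 41.0, 59.0 and 54.1 CPM and was lower with the block only (log2 fold change -0.21, edgeR adjusted p = 0.620 without and 0.0119 with it).

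The ID genes encode inhibitors of basic helix-loop-helix transcription factors, and SMAD6 encodes an inhibitory SMAD that acts in negative feedback on BMP signals. ID2, on chromosome 2 from 8678845 to 8684453, had the highest level per length of all 49 genes (mean 125 RPKM). It had 277, 310 and 328 CPM in the libraries labelled H295R and 254, 230 and 248 CPM in those labelled H295R-PM-Ptc+. The groups lay apart, at a log2 fold change of -0.32 (SE 0.0872, edgeR adjusted p = 0.0847, and 4.66e-04 with the block). DESeq2 gave ID2 an adjusted p of 0.0297, and edgeR with no filter on low counts 0.0407. ID2 is also on the study's list drawn from these libraries, and the same limit on direction holds. ID4 had 5 to 21 counts and a log2 fold change of -1.01 (edgeR adjusted p = 0.182), with the groups apart on the lower side.

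ID1, ID3 and SMAD6 shared a pattern across replicates. ID1 had 14.2, 22.9 and 27.0 CPM in the libraries labelled H295R and 18.6, 14.4 and 17.9 CPM in those labelled H295R-PM-Ptc+. Within replicate 1 the library labelled H295R-PM-Ptc+ was higher by 0.39, and within replicates 2 and 3 the log2 difference was -0.67 and -0.59. ID3 had 17.2, 35.4 and 41.1 CPM against 33.8, 25.4 and 30.7 CPM, with log2 differences of 0.97, -0.48 and -0.42 in the same order. SMAD6 had 13.2, 20.4 and 22.6 CPM against 14.4, 13.1 and 15.9 CPM, with log2 differences of 0.13, -0.64 and -0.51. In all 3 genes the library labelled H295R replicate 1 was the lowest or next to the lowest of the 6, and the pairs disagreed in direction. Over all 6 libraries the log2 fold change was -0.33 for ID1 (edgeR adjusted p = 0.481, and 0.125 with the block), -0.06 for ID3 (0.943 and 0.964) and -0.37 for SMAD6 (0.346 and 0.0293). SMAD7, the other inhibitory SMAD, which acts more widely on TGF-beta receptors, had log2 differences of 0.02, -0.14 and 0.02 in the 3 pairs.

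The labels give replicates 1, 2 and 3 of both groups the codes 1801, 3001 and 3101, without saying what a code marks. With replicates 2 and 3 only, a choice made after these values were seen, 15 of the 43 members had an edgeR adjusted p under 0.05 (34.9%), 6 higher and 9 lower, against 12.0% of all tested genes, 6.67% higher and 5.34% lower. These 15 include 13 of the 18 that passed with the block, and ID1 and ID3 were the other two. In these libraries ID1 stood at -0.63, ID2 at -0.42, ID3 at -0.45, SMAD6 at -0.57 and SMAD9 at -0.55, and BMP2 and BMP4 at 0.42 and 0.27 (all log2). Since replicate 1 was left out after ID1, ID3 and SMAD6 were seen to go the other way in it, these values and the counts are a description and no test of the pattern. Without the library labelled H295R replicate 1 alone, 7 members passed with group as the only term, against 4.75% of all tested genes. They were TGFBI and ACVRL1 on the higher side and ACVR2A, SMAD9, SMAD6, ID1 and ID2 on the lower side. Leaving out any other library gave 1 or 2 members. The library left out here was among the lowest for ID1, ID3 and SMAD6, so this count too is a description and no test. Whether replicate 1 differs from replicates 2 and 3 in its group difference was not tested.

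**Figure D4:**
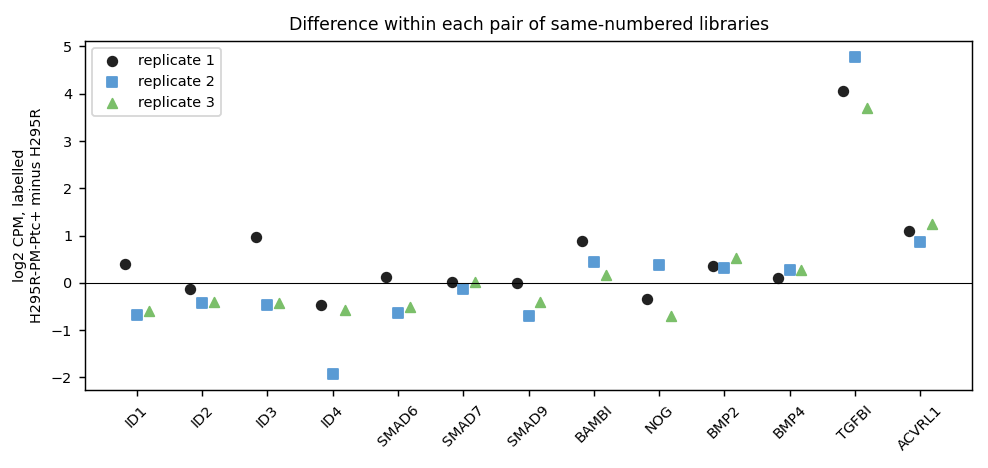
Log2 CPM of the library labelled H295R-PM-Ptc+ minus that of the library labelled H295R within each pair of the same number, for the ID genes, the feedback genes and 4 members on the higher side. Circles, squares and triangles are replicates 1, 2 and 3. For ID1, ID3 and SMAD6 replicate 1 lies above 0 and replicates 2 and 3 below it, while TGFBI, ACVRL1, BMP2 and BMP4 lie above 0 in all 3 pairs.

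The promoters of ID1, ID2, ID3 and SMAD6 are shown because these genes were lower together in replicates 2 and 3, as the 250 bases before a RefSeq start on GRCh38.p14. ID1 is at chr20:31605039-31605288 and ID2 at chr2:8681806-8682055, SMAD6 is at chr15:66701986-66702235, all on the forward strand, and ID3 is at chr1:23559502-23559751 on the reverse strand. Capitals mark the motifs GTCTAGAC, GGCGCC and CAGAC, searched on both strands, where CAGAC also reads as GTCTG. The motifs do not overlap one another in these windows.
ID1: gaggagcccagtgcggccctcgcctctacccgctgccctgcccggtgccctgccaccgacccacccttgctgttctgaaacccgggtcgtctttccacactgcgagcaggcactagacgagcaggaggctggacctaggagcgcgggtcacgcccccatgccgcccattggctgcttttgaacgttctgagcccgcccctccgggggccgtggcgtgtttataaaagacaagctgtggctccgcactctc
ID2: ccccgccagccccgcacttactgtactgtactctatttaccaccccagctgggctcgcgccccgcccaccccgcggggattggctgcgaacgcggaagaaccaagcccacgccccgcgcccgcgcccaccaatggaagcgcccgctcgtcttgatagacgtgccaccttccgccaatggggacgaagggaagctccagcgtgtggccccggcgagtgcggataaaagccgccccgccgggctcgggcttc
ID3: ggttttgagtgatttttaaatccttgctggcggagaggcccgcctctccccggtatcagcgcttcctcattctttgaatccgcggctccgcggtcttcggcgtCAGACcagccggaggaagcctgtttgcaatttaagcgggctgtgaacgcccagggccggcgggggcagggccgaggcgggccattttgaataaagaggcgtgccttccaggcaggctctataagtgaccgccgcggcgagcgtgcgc
SMAD6: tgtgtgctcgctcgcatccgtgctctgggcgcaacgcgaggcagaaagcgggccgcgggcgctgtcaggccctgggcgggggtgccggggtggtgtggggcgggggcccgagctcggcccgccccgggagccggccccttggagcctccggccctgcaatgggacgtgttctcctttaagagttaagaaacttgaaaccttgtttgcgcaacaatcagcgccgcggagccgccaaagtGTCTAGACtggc
The SMAD6 window ends close to GTCTAGAC, a palindrome of the SMAD3 and SMAD4 core, which is in 0.182% of the 35116 promoters and in 1 of the 80 promoters of the members. ID3 holds 1 CAGAC, which is in 38.0% of all promoters and in 32 of the 80 (40.0%). None of the 3 motifs is in these windows of ID1 and ID2. The RefSeq table matched 43 of the 49 genes, and ACVRL1 and BMP2 are among those not matched.

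Beyond the 49 genes, 87 other genes of the pathway were taken by role, of which 57 passed the filter. An edgeR adjusted p under 0.05 was reached by 2 of them (3.51%), both higher, near the 3.73% of all tested genes. Of these, TWSG1, a secreted modulator of BMPs, had 162, 166 and 168 CPM in the libraries labelled H295R and 211, 199 and 205 CPM in the other 3, a log2 fold change of 0.31 (SE 0.0689, edgeR adjusted p = 0.0450). This call was lost with each library left out, at an adjusted p of 0.0562 to 0.184, while the groups lay apart.

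With the replicate block, 20 of the 57 passed (35.1%), 16 higher and 4 lower, against 22.5% of all tested genes. By role they were 8 of 13 target genes, 5 of 19 intracellular components, 2 of 8 ligands, 2 of 8 extracellular modulators, 2 of 4 genes of latent TGF-beta storage and activation, and 1 of 5 receptors and co-receptors. Among the higher targets were CTGF, CYR61, CDKN1A, JUNB and BHLHE40, and the lower ones were KLF10 and PMEPA1. CTGF and CYR61, secreted matrix-associated proteins, had log2 fold changes of 0.92 and 0.49, and edgeR adjusted p-values of 4.08e-04 and 3.60e-05 with the block against 0.279 and 0.360 without it. THBS1, which encodes thrombospondin 1, an activator of latent TGF-beta, had 0.418, 1.73 and 1.78 CPM against 1.33, 4.86 and 3.50 CPM (edgeR adjusted p = 1.54e-04 with the block and 0.254 without it). CHRD (chordin, a BMP antagonist), LTBP4, AMH (anti-Müllerian hormone), GDF15, CD109 (a TGF-beta co-receptor), TGFBRAP1, NEDD4L and RNF111 were also higher with the block, and STRAP and TGIF2 were lower.

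**Figure D5:**
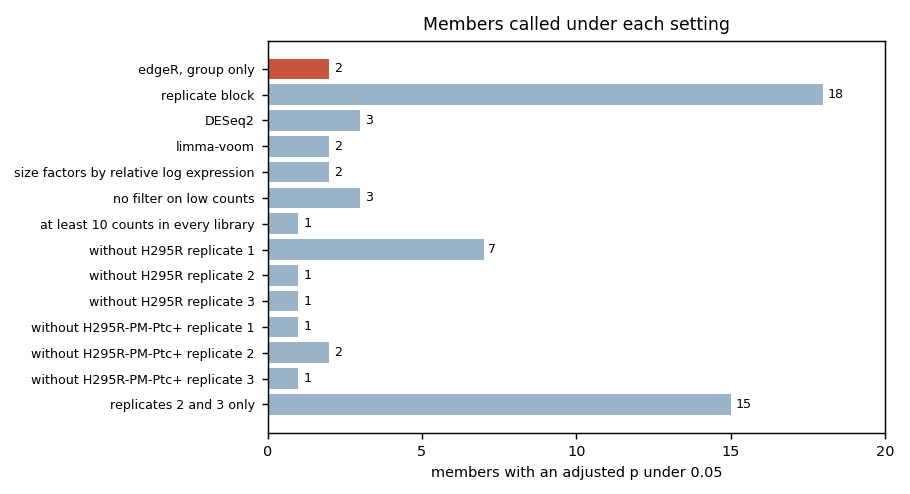
Number of the 43 tested genes with an adjusted p under 0.05 with the group as the only term (red) and under each other setting (blue). The count is 18 with the replicate block, 15 with replicates 2 and 3 only, 7 with H295R replicate 1 left out, and 1 to 3 in the others.

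Of the 49 genes, 25 were tested and passed in neither fit. Their log2 fold changes ran from -1.01 to 0.19, with 11 positive and 14 negative, and their edgeR adjusted p-values from 0.182 to 0.995. Within the 3 pairs of same-numbered libraries, 8 of the 43 tested genes were higher in H295R-PM-Ptc+ in every pair and 15 were lower in every pair, against 26.9% and 25.7% of all tested genes, and 52.6% in either direction. The 6 genes that were not tested were BMP5, BMP7, BMPR1B, GREM1, INHBB and ENG, with at most 13 counts in any library. With no filter on low counts their edgeR adjusted p-values were 0.371 for ENG, which had 13, 6 and 10 counts in the libraries labelled H295R and 3, 7 and 3 in the other 3, and 0.681 or more for the rest.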

How the data were processed

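RNA of 3 replicates of H295R and 3 of H295R-PM-Ptc+ was sequenced as 75-base paired reads. The deposited values are raw counts per gene name, which the authors made by aligning to hg38 with STAR 2.4.0a and counting fragments on the stated strand with featureCounts on Ensembl GRCh38.76, multiply mapped reads at their primary position. Per the labels the library kit was for total RNA and the molecule polyA RNA, while the study's methods name an mRNA kit. No normalization or filter was applied before deposit, and each library had another total. A row without a gene name held 0 counts and was left out.

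Groups and replicate numbers came from the labels. edgeR 4.0.16 in R 4.3.3 gave the main test (filterByExpr, TMM factors, glmQLFit, then the two-sided glmQLFTest on group alone), and p-values were adjusted by Benjamini-Hochberg across every gene tested. SEs come from that fit. CPM use TMM-scaled library sizes, and RPKM also the exon length in the table, which sums every annotated exon of a gene, so that levels compared between genes depend on the annotation. Pair differences are of log2 CPM with a prior of 0.5 counts. Interval levels are 95%, by the same fit. Replicates of one group differed beyond counting error (chi-square per gene 6.06 to 28.6). Each was counted as its own replicate, though such a spread does not show whether they are separate cultures. The test was tried on simulated counts.

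Deviations from the group means correlated across genes at 0.465, 0.280 and 0.201 for libraries of the same number and at -0.325 to 0.134 otherwise, so the numbers pair the libraries. The study's methods name no pairing, and the block was fitted as an alternative. The others were DESeq2 1.42.0, limma-voom (limma 3.58.1), relative log expression size factors, no filter, at least 10 counts in every library, each library left out, and replicates 2 and 3 only, which was added after the values were seen.

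The members, the pathway and marker lists and the tests were chosen with earlier results of these data known. Genes named with values are those that passed without or with the block, those highest per length in a role, PTCH1, and others chosen after their values were seen. CTGF, CYR61 and some other names are those of the annotation used, and LRRC33 was matched as NRROS. One gene of the pathway list is not reported here. Promoters were read from a RefSeq table of GRCh38.p14. Figures were drawn with matplotlib 3.10.9 in Python 3.11.15.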

Additional observations from a re-analysis of the deposited data

How the results depend on the processing

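The number of calls moved most with the replicate block, to 3758 of all tested genes, 18 members and 20 other pathway genes, from 624, 2 and 2. No call was lost with it: every one of the 624 genes and both members called without it were also called with it. With replicates 2 and 3 only the counts were 2013, 15 and 12, and with no filter on low counts 1111 of all genes and 6 other pathway genes. With at least 10 counts in every library 1 member was called, since TGFBI was then not tested. Each library left out in turn gave 219 to 810 of all genes (278 and 219 without H295R replicates 2 and 3, 247 and 257 without H295R-PM-Ptc+ replicates 2 and 3), 1 to 7 members and 1 to 4 other pathway genes. ACVRL1 was lost in 4 of these 6 fits, and TWSG1 in all 6 and with no filter (0.0528). The cause was not tested.

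Of 596 alternative values for 46 genes under 13 settings, 505 kept direction and side of the threshold, 36 passed in addition, 14 no longer passed and 41 changed sign. The sign changes fell on 15 genes with a log2 fold change of at most 0.0627 in size. They were, outside the fits with a library left out, LTBP2 (-0.00313 by limma-voom and -5.65e-04 with no filter), INHBE (-0.00409 by limma-voom and -0.19 with replicates 2 and 3 only), ID3 (0.0206 by limma-voom), and, with replicates 2 and 3 only, SMAD1 (-0.0183), SMAD2 (-0.0283) and SMURF1 (0.00254). With each library left out, the log2 fold change ran from -0.143 to 0.181 for LTBP1, -0.123 to 0.0719 for LTBP2, -0.376 to 0.232 for INHBE, -0.113 to 0.000674 for ACVR2B, -0.0448 to 0.190 for TGFBR3, -0.101 to 0.0355 for FSTL3, -0.0511 to 0.0521 for SMAD1, -0.0783 to 0.0566 for SMAD2, -0.00142 to 0.0612 for SMAD3, -0.0766 to 0.123 for SMAD5, -0.151 to 0.0459 for SMAD7, -0.0959 to 0.0212 for SMURF1, -0.0656 to 0.0705 for SMURF2, -0.00800 to 0.154 for SKI and -0.353 to 0.175 for ID3. Depth limits the members with few counts, such as TGFBI with at most 6 counts in the libraries labelled H295R.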

Other observations

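Ratios of level per length within 1 library do not depend on library size. FST stood 238 to 415 times above INHBA in the 6 libraries. BMP4 was 3.92 to 5.36 times above BMP6 in the libraries labelled H295R and 5.33 to 6.42 times in those labelled H295R-PM-Ptc+. LTBP1 was 8.08 and 8.57 times above LTBP3 in replicates 1 of the groups, and 12.5 to 16.7 times in replicates 2 and 3. These are values with no test.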
